A study of Mus musculus with 24 samples.

Results

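Foxc1, Foxc2, Foxf1, Foxf2, Foxd1 and Foxd2 are 6 of the 21631 mouse protein-coding genes to which peaks of open chromatin and of the histone mark H3K27ac were assigned. They were chosen by name, as the Foxc, Foxf and Foxd genes of the forkhead family that act in jaw and limb mesenchyme. Each peak was given to the gene whose span held its midpoint, and otherwise to the nearest protein-coding gene within 1 Mb. The quantity followed is peak cover, the summed length of a gene's peaks in kb. All embryos were wild type and of the strain C57BL/6. Meckel's cartilage (MC), the cartilage rod of the lower jaw, and forelimb cartilage (FL) were dissected at E14.5, with 3 ATAC-seq and 3 H3K27ac CUT&Tag libraries per tissue. The mandibular process, in which MC forms, was taken at E12.5 and has 2 ATAC-seq libraries and no H3K27ac library. For these 2 libraries the titles and the protocol give E12.5 and ATAC-seq, whereas the free-text description names E14.5 and Hi-C, and the titles were followed. The labels do not say whether replicates came from separate embryos or pools, so every test measures the spread between these libraries, which may be technical. E12.5 mandible is a whole tissue and E14.5 cartilage a dissected one, so stage and cell makeup cannot be told apart in any comparison between them. FL against E12.5 mandible also sets limb against jaw, and this cannot be told apart from stage either.

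Forkhead proteins are transcription factors that bind DNA through a winged-helix domain. In the facial primordia the Foxf, Foxd and Foxc2 genes are known targets of Hedgehog signalling in neural crest mesenchyme, and Foxc1 acts in skull, jaw and endochondral bone formation. ATAC-seq marks DNA open to a transposase, and H3K27ac is a mark of active promoters and enhancers, so both describe the regulatory state of a locus and not its RNA level.

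The 8 ATAC lists held 43205 to 74706 peaks, of which 32 to 40 (MC), 28 to 47 (FL), and 90 and 54 (E12.5), were assigned to the 6 genes. Read depth is unknown for all lists. The list of E12.5 replicate 1 stood apart: it covered 85.6 Mb, against 40.7 to 53.0 Mb in the other 7 lists. Its Jaccard index of covered bases with E12.5 replicate 2 was 0.198. Among MC lists the index was 0.363 to 0.470, among FL lists 0.425 to 0.452, and between MC and FL lists 0.330 to 0.443. E12.5 replicate 2 had an index of 0.317 to 0.420 with MC lists and 0.356 to 0.393 with FL lists. Because the totals differed, cover was scaled so that every list had an equal total. Each fitted difference from E12.5 is given with and without E12.5 replicate 1. All 8 chondrocyte markers carried peaks, with a summed scaled cover of 85.5 to 91.7 kb in MC, 83.5 to 97.8 kb in FL and 75.9 to 93.2 kb in E12.5. Genes of limb position summed to 4.33 to 6.61 kb in MC and 19.7 to 21.2 kb in FL, and genes of jaw position to 17.8 to 25.2 kb and 7.44 to 11.6 kb. At E12.5 the limb genes were at 10.17 to 14.33 kb and the jaw genes at 12.6 to 21.4 kb. The 5 skeletal muscle markers, all with peaks in some list, summed to 11.2 and 47.5 kb in the 2 E12.5 lists, against 4.20 to 10.8 kb in the 6 E14.5 lists, and both E12.5 lists were also above all 6 E14.5 lists in 4 smooth muscle and pericyte markers (14.1 to 14.3 kb against 8.75 to 13.6 kb) and 5 epithelial markers (11.7 to 12.6 kb against 6.16 to 10.7 kb). The 4 blood markers, 1 of them at 0 in every list, summed to 18.7 to 19.7 kb in MC and 21.8 to 29.0 kb in FL, without overlap. At E12.5 they summed to 9.66 to 26.6 kb. Endothelial markers (5) summed to 24.6 to 26.2 kb at E12.5, 28.0 to 31.1 kb in MC and 26.2 to 31.3 kb in FL. Neuron and Schwann cell markers (5) summed to 10.4 to 20.8 kb, 6.42 to 16.7 kb and 6.82 to 7.45 kb in the same order. Tendon markers (3, 1 of them at 0 in every list) summed to 8.48 to 9.35 kb, 7.04 to 9.045 kb and 6.36 to 13.2 kb. The part of these markers in the comparisons was not tested.

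The genes lie at 4 loci of the mouse build mm10 (GRCm38.p6, RefSeq spans, without exon annotation). Foxf2 (chr13:31625816-31631406) and Foxc1 (chr13:31806646-31810635) share a locus with Foxq1, and Foxf1 (chr8:121084386-121088154) and Foxc2 (chr8:121116171-121118895) share another with Foxl1. Foxd1 (chr13:98354245-98356705) and Foxd2 (chr4:114906280-114908898) stand alone, Foxd2 beside Foxe3. The stretch of genome nearest to each gene differed widely, from 11.0 kb for Foxc2, which is hemmed in by Mthfsd and Foxl1, to 169 kb for Foxf1. Per length of that stretch, and as listed without scaling, the 6 E14.5 lists covered 9.67 to 32.8% for Foxc2, 5.71 to 9.86% for Foxc1, 4.47 to 8.38% for Foxd2, 1.17 to 4.71% for Foxf1, 2.67 to 3.65% for Foxd1 and 1.44 to 3.93% for Foxf2. By this measure Foxc2, with the shortest stretch, ranked highest of the 6 in each of these lists. On the gene spans alone (2725 bp for Foxc2, 3990 bp for Foxc1) the ranking was not the same in FL. Foxc2 had 1.922, 1.462 and 1.085 kb in the MC libraries and 0.652, 0.273 and 0.015 kb in those of FL. Foxc1 had 1.144, 1.772 and 1.922 kb (MC) and 2.045, 1.689 and 1.479 kb (FL).

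Promoter sequences are shown because the ATAC lists put a peak on them. For Foxc1, Foxd1 and Foxd2, 8 of 8 lists did so. For Foxf2 it was 6 of 8, where MC replicate 1 and E12.5 replicate 1 had none. The share of all promoters with a peak in these lists is not given here. RefSeq's promoter table (GRCm38.p6) held 4 of the 6 genes and was searched from 250 bases before to 50 after the start. The 250 bases before the start are printed 5′ to 3′ on the gene's strand, with every CG dinucleotide in capitals. They lie at chr13:31806396-31806645 (plus strand) for Foxc1, chr13:31625566-31625815 (plus) for Foxf2, chr13:98353995-98354244 (plus) for Foxd1 and chr4:114908899-114909148 (minus) for Foxd2.
Foxc1: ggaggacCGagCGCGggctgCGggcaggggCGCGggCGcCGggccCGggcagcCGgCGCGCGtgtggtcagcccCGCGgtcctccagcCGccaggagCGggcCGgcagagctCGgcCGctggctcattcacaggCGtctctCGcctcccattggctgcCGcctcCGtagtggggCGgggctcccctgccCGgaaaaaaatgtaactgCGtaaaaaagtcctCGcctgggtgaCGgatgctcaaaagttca
Foxf2: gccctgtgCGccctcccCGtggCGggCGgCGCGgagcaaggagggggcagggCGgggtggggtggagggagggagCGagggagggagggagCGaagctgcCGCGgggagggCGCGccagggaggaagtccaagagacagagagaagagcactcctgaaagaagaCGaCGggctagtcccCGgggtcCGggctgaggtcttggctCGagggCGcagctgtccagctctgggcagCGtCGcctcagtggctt
Foxd1: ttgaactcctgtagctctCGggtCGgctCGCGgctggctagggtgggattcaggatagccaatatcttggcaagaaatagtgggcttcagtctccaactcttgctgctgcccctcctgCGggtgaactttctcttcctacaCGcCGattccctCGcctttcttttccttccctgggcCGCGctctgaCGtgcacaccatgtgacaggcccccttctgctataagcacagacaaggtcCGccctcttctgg
Foxd2: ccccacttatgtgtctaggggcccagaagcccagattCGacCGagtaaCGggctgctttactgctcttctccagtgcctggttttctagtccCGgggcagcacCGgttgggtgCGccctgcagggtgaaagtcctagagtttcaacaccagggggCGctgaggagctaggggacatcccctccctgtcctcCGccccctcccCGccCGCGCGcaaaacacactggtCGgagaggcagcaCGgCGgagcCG
Over the whole stretch searched, G and C made up 67.3% for Foxc1, 71.3% for Foxf2, 57.7% for Foxd1 and 67.7% for Foxd2, above the median of 52.7% over 32851 promoters. The number of CG dinucleotides was 32, 27, 15 and 26 in the same order, against a median of 7. The forkhead motif GTAAACA (in 3.65% of all promoters, both strands), the GLI motif GACCACCCA (0.253%) and the SOX motif ACAAAG (18.7%) were in none of the 4 windows.

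The first comparison sets jaw cartilage against limb cartilage at E14.5. No member passed the threshold, a Benjamini-Hochberg adjusted p under 0.05 in limma over 16174 genes, and neither did any other gene (0.0% called). At an unadjusted p under 0.05 limma gave 817 genes (5.05%), among them 1 member, Foxc2. In Foxc2 and Foxd2 all 3 MC libraries lay above all 3 FL libraries, 2 of 6 members against 9.18% of all genes, and in none did FL lie above MC (8.98% of all genes). The median log2 difference, MC minus FL, was 0.17 over the members and 0.03 over all genes tested.

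Foxc2, known from the vertebral column and lymphatic vessels, had 4.11, 2.93 and 2.08 scaled kb in the 3 MC libraries and 2.05, 1.34 and 1.25 kb in the 3 FL libraries. The lowest MC library was just above the highest FL library. The log2 difference was 0.77 ± 0.33 (SE), with a limma p of 0.0409 and an adjusted p of 0.984. Counted as peaks, it had 3, 2 and 2 in MC and 3, 2 and 2 in FL, so that the difference was one of peak length. Foxf1, a factor of lung, gut and vascular mesenchyme, had 5.74, 9.21 and 5.39 kb in the MC libraries, and in the FL libraries 3.75, 5.49 and 2.33 kb. The groups overlapped, by 1 library, and the log2 difference was 0.77 ± 0.54 (SE; limma adjusted p 1.0). Foxd2, expressed in neural crest mesenchyme and kidney, had 10.6, 9.73 and 14.2 kb among MC libraries and 8.84, 8.02 and 8.15 kb among those of FL, without overlap. Its log2 difference was 0.42 ± 0.33 (SE; limma adjusted p 1.0).

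In the remaining 3 members the libraries of both cartilages overlapped as well. Foxc1 had 8.47, 6.74 and 6.61 kb (MC) as against 11.8, 8.03 and 6.43 kb (FL), and its log2 difference of -0.22 ± 0.40 (SE) became 0.01 without FL replicate 1. Foxf2, whose loss causes cleft palate, had 2.06, 4.25 and 5.37 kb in the MC libraries, and FL had 4.27, 3.89 and 3.54 kb. The 3 MC libraries spread more widely than the FL libraries, and the log2 difference of -0.08 ± 0.38 (SE) turned to 0.27 without MC replicate 1. Foxd1, the stromal factor of the developing kidney, had 5.17, 5.86 and 4.65 kb among MC libraries and 6.44, 5.60 and 5.35 kb among those of FL (log2 difference -0.14 ± 0.41, SE). Its 6 E14.5 libraries lay within a narrow range in which the tissues overlapped.

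**Figure D1:**
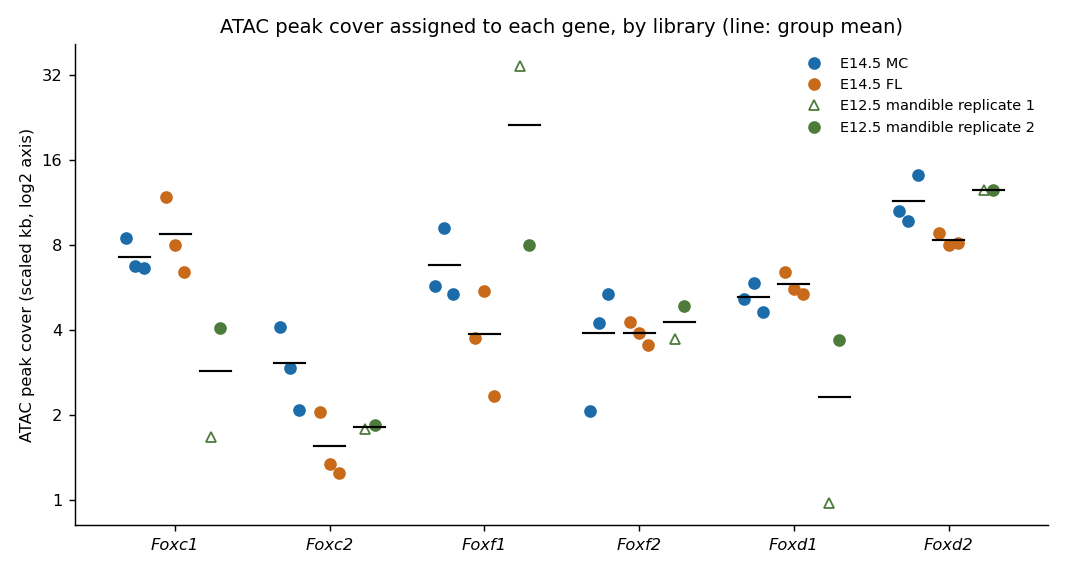
ATAC peak cover of each gene in scaled kb (vertical axis, log2), 1 point per library, with horizontal lines for group means; the open triangle is E12.5 replicate 1. Foxc1 and Foxd1 have all 6 E14.5 libraries above both E12.5 libraries, and Foxf1 reaches 34.6 kb in E12.5 replicate 1 against 8.04 kb in replicate 2.

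The comparisons with E12.5 mandible ask how these loci stand in the tissue from which MC arises, 2 days earlier. Again 0 of 16174 genes passed the limma threshold (0.0% called) for MC or for FL, with 920 (5.69%) and 2048 (12.7%) genes at an unadjusted p under 0.05, of which 2 and 3 were members. MC and FL were compared with the same 2 E12.5 lists, so the comparisons are not independent. The MC and E12.5 libraries did not overlap in Foxc1, Foxc2 and Foxd1, 3 of 6 members against 18.4% of all genes in either direction, and in these 3 members MC lay above. All FL libraries lay above in Foxc1 and Foxd1, 2 of 6 against 16.5% of all genes, and below in Foxf1 and Foxd2, 2 of 6 against 9.77%. Set against E12.5 replicate 2 alone, the MC libraries lay above it in Foxc1, Foxc2 and Foxd1 (26.5% of all genes) and below it in none (24.6%). Against that list the FL libraries lay above in Foxc1 and Foxd1 (23.2%) and below in Foxf1, Foxf2 and Foxd2 (26.1%).

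Foxc1 had 1.67 and 4.07 scaled kb in the 2 E12.5 libraries, below each of the 6 E14.5 libraries, of which the lowest had 6.43 kb. Its log2 difference was 1.30 ± 0.45 (SE) for MC minus E12.5 and 1.52 ± 0.45 for FL minus E12.5, beside medians of 0.23 and 0.25 over all genes. The limma adjusted p was 0.709 and 0.386. Without E12.5 replicate 1 the differences were 0.75 and 0.97, and without replicate 2 they were 1.84 and 2.06. Foxd1 had 0.973 and 3.67 kb at E12.5, again below each E14.5 library, of which the lowest had 4.65 kb. Its log2 differences were 1.20 and 1.34 (SE 0.46 each; limma adjusted p 0.709 and 0.386), and 0.45 and 0.58 without E12.5 replicate 1. Without E12.5 replicate 2 they were 1.96 and 2.10. Both genes therefore had the same direction with either E12.5 library left out, and larger differences where replicate 1 was the sole E12.5 library. No p-value is given for fits with 1 E12.5 library, because that group then shows no spread of its own.

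Foxf1 was the member on which the 2 E12.5 libraries differed most. Replicate 1 listed 55 peaks over 58.4 kb, which is 34.5% of the stretch nearest to the gene, and replicate 2 listed 12 peaks over 7.63 kb, or 4.50%. After scaling these were 34.6 and 8.04 kb, a log2 ratio of 2.04 that was higher than in 94.0% of genes. The log2 difference was -1.29 ± 0.60 (SE) for MC minus E12.5 and -2.06 ± 0.60 for FL minus E12.5 (limma adjusted p 0.709 and 0.386), and -0.27 and -1.03 without replicate 1. Without replicate 2 the differences were -2.31 and -3.08. In E12.5 replicate 2 alone, Foxf1 lay within the MC range and above each FL library. Foxl1, a mesenchymal factor of the gut that shares the locus, was alike in this respect, with 69 peaks in replicate 1 and 15 in replicate 2.

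Foxd2, Foxf2 and Foxc2 differed less from E12.5. Foxd2 had 12.51 and 12.56 scaled kb at E12.5, inside the MC range and above each FL library, with log2 differences of -0.14 and -0.56 (SE 0.37 each; limma adjusted p 0.902 and 0.455). Foxf2 had 3.72 and 4.85 kb, and log2 differences of -0.20 and -0.11 (SE 0.43 each). Foxc2 had 1.78 and 1.84 kb, below the lowest MC library and inside the FL range, with log2 differences of 0.58 and -0.20 (SE 0.37 each). Without E12.5 replicate 1 the differences, MC then FL, were -0.14 and -0.56 for Foxd2, -0.36 and -0.28 for Foxf2, and 0.55 and -0.21 for Foxc2. Counted as peaks, Foxc2 had 4 in each E12.5 list, and the difference between MC and E12.5 turned to -0.20. Without scaling, the median of all genes shifted from 0.23 to -0.14 for MC and from 0.25 to -0.10 for FL, and the sign of each member's difference was the same as with scaling.

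**Figure D2:**
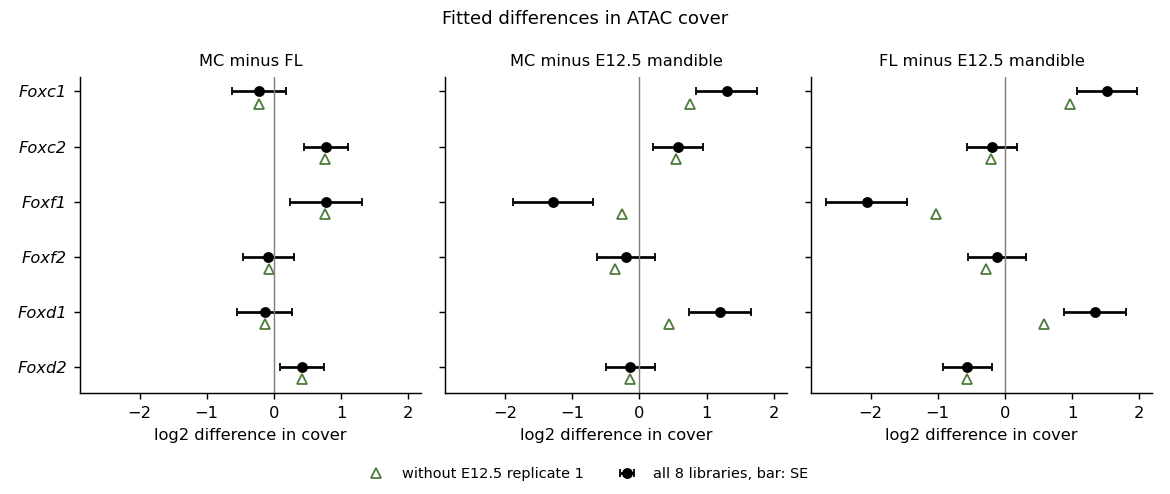
Log2 differences in ATAC cover fitted by limma (horizontal axis) for the 6 genes in the 3 comparisons; black points use all 8 libraries with bars for the SE, and open triangles leave out E12.5 replicate 1. Leaving it out moves Foxf1 from -2.06 to -1.03 in FL minus E12.5, and Foxc1 and Foxd1 keep positive values against E12.5.

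The sharing of a locus by several forkhead genes makes assignment to 1 gene arbitrary, so 4 windows with 200 kb on either side of the genes were measured as a whole. With 3 libraries against 3 or against 2, the exact permutation test cannot give a p below 0.1, and adjustment was over 12 tests. The Foxf1-Foxc2-Foxl1 window (chr8:120884386-121330644) had 29.3, 36.4 and 25.6 scaled kb in the MC libraries and 16.9, 20.1 and 11.7 kb in those of FL. Every MC library was above every FL library, by 14.2 kb on average (means 30.4 ± 5.51 and 16.25 ± 4.26 kb, SD, with 3 libraries in each; p 0.1 in the two-sided exact permutation test, adjusted 0.3). The difference was 11.2 to 16.6 kb with any 1 library left out, and 10.1 and 22.4 kb with flanks of 100 and 500 kb. At E12.5 the same window had 94.3 and 20.7 kb. MC minus E12.5 was -27.1 kb with both E12.5 libraries and 9.69 kb without replicate 1, so its direction rested on that library. FL minus E12.5 was -41.2 kb (two-sided exact permutation p 0.1, adjusted 0.3), and -4.48 kb without replicate 1.

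The Foxf2-Foxq1-Foxc1 window (chr13:31358170-32010635) had 17.3, 14.1 and 17.6 kb in MC libraries, 25.6, 20.9 and 16.7 kb in those of FL, and 7.93 and 17.8 kb at E12.5. The 3 groups overlapped in pairs (two-sided exact permutation p 0.3 to 0.7), and MC minus E12.5 turned from 3.44 to -1.52 kb without E12.5 replicate 1. The Foxd1 window (chr13:98154245-98556705) had 12.6, 16.9 and 15.5 kb in MC libraries, 12.8, 14.2 and 13.8 kb in those of FL, and 2.77 and 11.5 kb at E12.5. Each E14.5 library was above both E12.5 libraries, and above E12.5 replicate 2 alone the means were higher by 3.51 kb in MC and 2.13 kb in FL. The exact permutation p was 0.1 for both tissues against E12.5 (adjusted 0.3). The Foxd2 window (chr4:114706280-115108898), which also holds Foxe3, Stil and Tal1, had 17.8, 20.5 and 27.1 kb in MC libraries, 22.5, 18.6 and 23.7 kb in those of FL, and 22.5 and 30.9 kb at E12.5, with overlap between all groups.

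**Figure D3:**
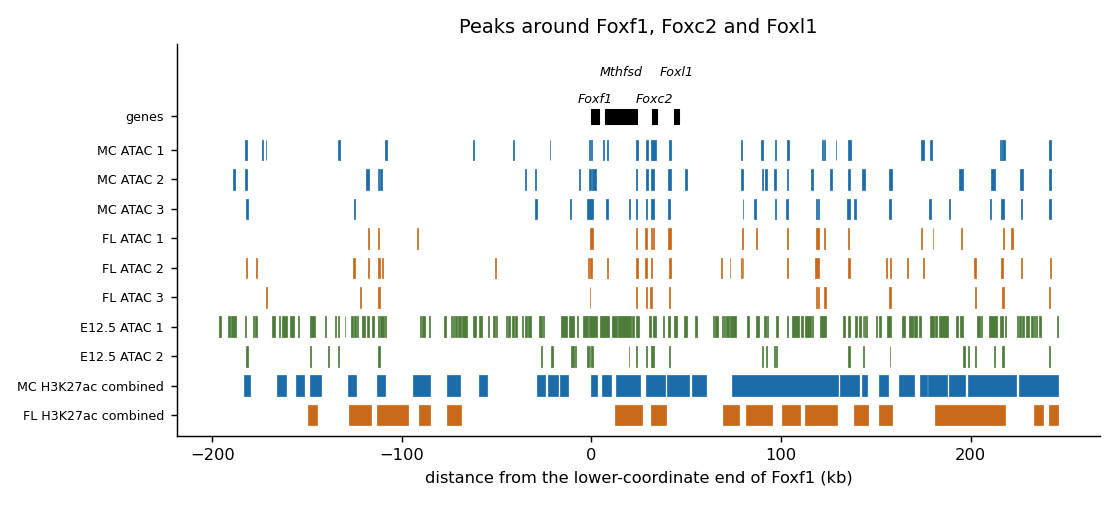
Peaks of the 8 ATAC libraries and of the 2 combined H3K27ac lists around Foxf1, Foxc2 and Foxl1, by distance in kb from the lower-coordinate end of Foxf1 (horizontal axis), with gene spans on top. E12.5 replicate 1 lists 55 peaks for Foxf1 and replicate 2 lists 12, and all 8 ATAC libraries have a peak in the merged region at Foxf1 and in that at Foxc2.

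Merging the peaks of the 8 lists gave 157342 regions, of which 128 fell to the members: 60 to Foxf1, 29 to Foxd2, 13 to Foxc1, 12 to Foxf2, 11 to Foxd1 and 3 to Foxc2. Peaks were present in every list in 11 of the 128 member regions (8.59%, against 10.0% of all regions). E12.5 replicate 1 alone gave 46 of the 128 (35.9%, against 20.0% of all regions), and 38 of these belonged to Foxf1, spread from 0.72 to 160 kb from the gene. Of those 38, 15 overlapped the combined MC H3K27ac list and 12 the combined FL list. Over all regions, 55.5% overlapped the MC list and 55.4% the FL list.

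Each of the 6 members had a merged region that overlapped its own span and held a peak in all 8 lists. The share of all genes with such a region is not given here, so this is not read as particular to the members. On Foxc1 it was chr13:31805525-31808774, whose median rank by the authors' signal was in the top 16.6% of a list, with H3K27ac in both combined lists. On Foxc2 it was chr8:121114667-121118363, also with H3K27ac in both. On Foxf1 (chr8:121082213-121087062) and on Foxf2 (chr13:31624013-31627326) the region had H3K27ac in the combined MC list and none in the combined FL list. The peak of FL replicate 3 in the Foxf1 region lay beside the span, on which that list had 0.0 kb. The best ranked region of Foxd1 lay 33.6 kb from the gene at chr13:98390261-98392553, and had H3K27ac in both tissues. For Foxd2 it lay 125 kb from the gene at chr4:114778588-114781587, in the top 9.58% by median rank, again with H3K27ac in both. Their regions on the gene were at chr13:98353727-98355969 without H3K27ac in either list and at chr4:114906974-114909846 with H3K27ac in both.

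Only 1 member region was open in all MC lists and no FL list (0.781%, against 0.367% of all regions), and 1 in all FL lists and no MC list (0.781%, against 1.62%). The MC region, chr4:114791322-114792112, lay 114 kb from Foxd2, was in neither E12.5 list, and overlapped H3K27ac in both combined lists. The FL region, chr13:31710178-31711310, lay 78.8 kb from Foxf2 towards Foxc1, was in neither E12.5 list, and overlapped H3K27ac in the combined FL list alone. Neither class had a member region that stayed when a list had to cover 50% of the merged region.

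Against E12.5, 3 member regions were in every MC list and no E12.5 list (2.34%, against 0.892% of all regions). They were the Foxd2 region just named, chr13:31765145-31766287 at 40.4 kb from Foxc1, and chr13:98393128-98394298 at 36.4 kb from Foxd1. The Foxd1 region was in all 6 E14.5 lists and in no E12.5 list, with H3K27ac in both combined lists. In FL 3 regions had this pattern (2.34%, against 2.48%): the Foxd1 region, the Foxf2 region and chr13:31760130-31761312, 45.3 kb from Foxc1. In the other direction, 3 regions were in both E12.5 lists and no MC list (2.34%, against 1.59%). They were chr8:120935814-120936623 and chr8:121056560-121058536, at 148 and 25.9 kb from Foxf1, and chr4:114845824-114846602, at 59.7 kb from Foxd2. Both Foxf1 regions were also absent from every FL list, and so were chr8:120950535-120951631 and chr8:121072644-121075318 near Foxf1 and chr4:114901006-114902362 near Foxd2 (5 regions, 3.91%, against 1.81%). These 4 Foxf1 regions were in both E12.5 lists and so do not rest on replicate 1 alone.

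**Figure D4:**
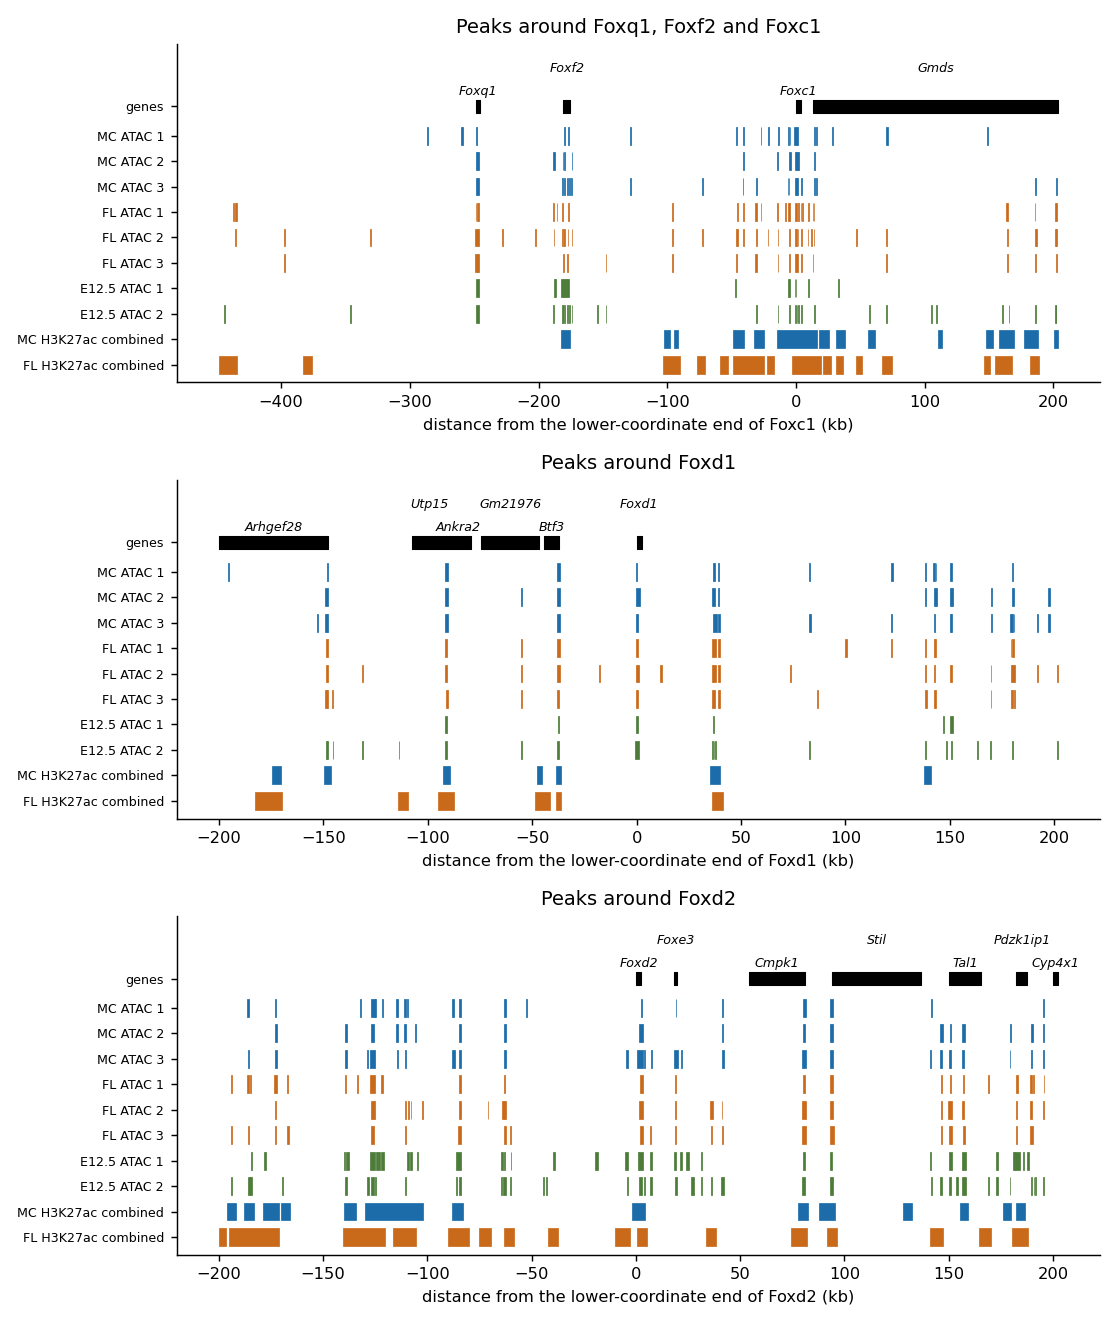
Peaks of the 8 ATAC libraries and of the combined H3K27ac lists by distance in kb from the lower-coordinate end of Foxc1, Foxd1 and Foxd2 (horizontal axes), with gene spans on top. Around Foxd1, the region 36.4 kb from the gene is in all 6 E14.5 libraries and in no E12.5 library, and H3K27ac lies there and not on Foxd1 itself.

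For H3K27ac, the authors' combined lists give 1 value per tissue, with no error and no test. Cover as listed, MC then FL, was 10.4 and 7.67 kb for Foxc2, 58.8 and 46.2 kb for Foxf1, 15.5 and 12.9 kb for Foxf2 and 7.85 and 5.24 kb for Foxd1. It was 47.6 and 64.6 kb for Foxc1 and 44.5 and 68.8 kb for Foxd2. After scaling, 4 of 6 members had more cover in MC, against 52.4% of 14358 genes, and none differed by a log2 ratio of 1 or more in either direction (19.0% and 15.9% of genes did). The log2 ratios ran from -0.47 for Foxd2 to 0.69 for Foxd1, with a median of 0.45 over the members and 0.04 over all genes. Foxd1 had 2 peaks in MC and 1 in FL, and its ratio was -0.03 when peaks with midpoints farther than 100 kb were left out. Foxf1 had 12 peaks in MC and 5 in FL, and its ratio was 0.50. It was 1.53 when peaks with midpoints over 100 kb away were left out. This drops FL peaks of 4.976, 11.4 and 16.5 kb, and MC peaks of 4.619, 4.445, 5.975, 4.14 and 3.962 kb. The FL peak of 16.5 kb has its midpoint 104.7 kb and its near edge 96.5 kb from the gene. The combined MC list reaches down to a signal of 16925 and the FL list to 25799. Under the FL minimum lay 7 of the 12 MC peaks of Foxf1, 1 of the 3 of Foxf2 and 1 of the 2 of Foxd1.

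On the gene spans themselves the combined lists differed between tissues in presence of the mark at Foxf1 and Foxf2, a tally added after the values had been seen. Foxf1 had 2.76 kb of H3K27ac on its span in MC, whereas FL had 0.0 kb, and Foxf2 had 5.47 and 0.0 kb. The MC peak on Foxf1 had a signal of 20892, under the minimum of the FL list, and that on Foxf2 had 37771, above it; the part of this difference between the lists was not tested. A span marked in MC alone was found in 4.89% of 21631 genes, and Foxl1, beside Foxf1, was another with 2.96 and 0.0 kb. Foxc1 and Foxc2 were covered over their whole spans in both tissues, and Foxd2 over 2.62 kb (MC) and 2.07 kb (FL) (both tissues marked in 63.2% of genes). Foxd1 had no mark on its span in either list, as had 28.8% of genes. The single-library lists held little on these spans: peaks lay on the span of Foxf1 in 1 of 3 MC and 0 of 3 FL libraries, and on that of Foxf2 in none of the 6.

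The single-library H3K27ac lists covered 51.9 to 55.8 Mb each, against 408 and 454 Mb in the combined MC and FL lists, and gave little cover per member. In limma, 0 of 8645 genes passed the threshold (0.0% called), 671 (7.76%) had an unadjusted p under 0.05, and 5 of the 6 members could be tested and were not among these. In none of the 5 did the tissues lie apart (6.34% of genes in 1 direction and 5.95% in the other). Foxc2 was under the minimum of 1 kb, with 0.0 kb in 5 libraries. Foxf1 had 2.27, 6.32 and 3.30 scaled kb in the MC libraries and 1.90, 3.10 and 1.58 kb in those of FL, a log2 difference of 0.66 ± 0.51 (SE; limma adjusted p 0.811). Foxf2 had 1.74, 5.49 and 1.29 kb (MC) as against 2.48, 0.0 and 2.73 kb (FL), and its log2 difference of 0.77 ± 0.63 (SE) turned to -0.10 without FL replicate 2. Foxd1 had 2.36, 3.62 and 2.12 kb in the MC libraries, and FL had 5.95, 2.64 and 4.91 kb (log2 difference -0.61 ± 0.48, SE; limma adjusted p 0.813), the opposite direction to its combined lists. Foxc1 and Foxd2 had log2 differences of 0.01 ± 0.61 and -0.01 ± 0.60 (SE).

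The combined ATAC lists, with 1 value per group, had for Foxf1 4.60 kb for MC, 1.94 kb for FL and 27.7 kb at E12.5, and for Foxd2 8.19, 5.88 and 15.1 kb. For Foxc2 they had 3.00, 1.36 and 2.71 kb, for Foxf2 4.77, 3.26 and 6.61 kb, for Foxc1 5.82, 7.88 and 3.40 kb, and for Foxd1 4.32, 4.685 and 2.13 kb. After scaling, 5 of 6 members had more cover in MC than in FL, against 57.7% of 15301 genes, and 2 of 6, Foxc2 and Foxf1, had a log2 ratio of 1 or more (4.98% of genes). No member had a log2 ratio of -1 or less, against 5.84% of genes. The E12.5 values pool both E12.5 libraries, replicate 1 included.

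**Figure D5:**
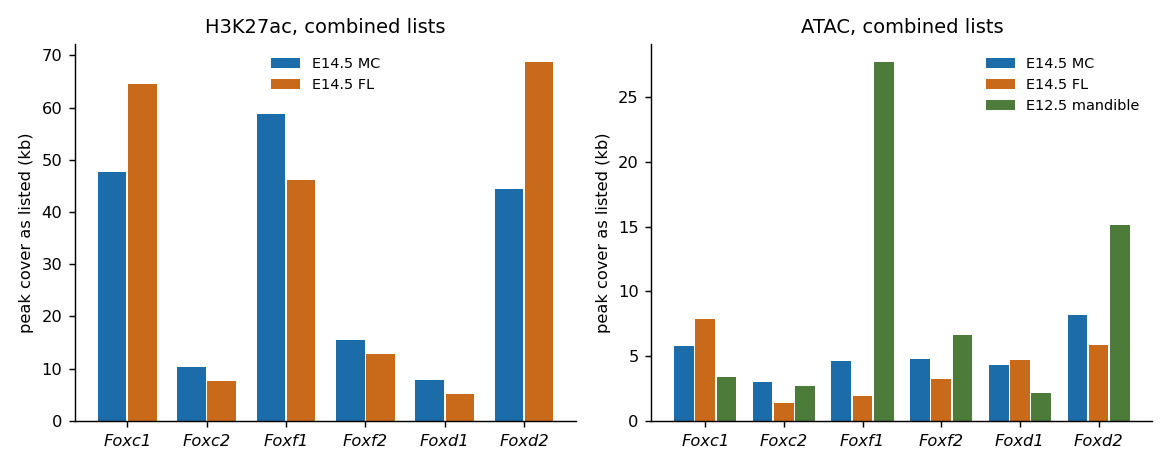
Peak cover as listed, in kb (vertical axes, from 0), of the authors' combined H3K27ac lists for MC and FL and of their combined ATAC lists for MC, FL and E12.5 mandible; each bar is 1 pooled list without error. H3K27ac cover is larger in FL for Foxc1 and Foxd2, and the E12.5 ATAC bar of Foxf1 stands at 27.7 kb.

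The 38 other forkhead genes gave the setting for these values. Of the 35 with enough ATAC cover, 0 passed the limma threshold in any comparison, 14 were higher and 21 lower in MC than in FL, and the median log2 difference was -0.03. For MC minus E12.5 they split 20 and 15 with a median of 0.10, and for FL minus E12.5 18 and 17 with a median of 0.05. Foxq1, which lies next to Foxf2 and acts in hair and stomach, had 3.81, 2.45 and 3.11 scaled kb in the MC libraries and 6.08, 6.90 and 5.58 kb in those of FL. Its libraries did not overlap, and the log2 difference was -0.90 ± 0.39 (SE; limma p 0.0421, adjusted 0.984). Its combined H3K27ac cover was 43.9 kb in FL as against 19.8 kb in MC, while its single-library H3K27ac lists had a log2 difference of 0.69 in the opposite direction. Foxl1 had 14.43 to 21.04 kb of ATAC cover in the MC libraries and 6.54 to 10.96 kb among those of FL, also without overlap (log2 difference 0.81 ± 0.53, SE; limma adjusted p 1.0), and 175 and 104.5 kb of combined H3K27ac cover. Among the genes of smallest p, Foxs1 and Foxj1 were higher in MC than in FL (log2 differences 1.32 and 0.78) and Foxa2 lower (-0.93). Cover was low in Foxs1, with 0.692, 3.22 and 1.66 scaled kb in the MC libraries and 0.840, 0.0 and 0.419 kb in those of FL. The Foxs1 libraries overlapped, whereas those of Foxj1 and of Foxa2 did not.

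Against E12.5, Foxo1 had log2 differences of 0.85 in MC and 1.33 in FL, and Foxa3 0.78 in MC and Foxa2 1.11 in FL. Without E12.5 replicate 1 these 4 values were 0.44, 0.91, 1.08 and 0.11. In the other direction, Foxe3, the neighbour of Foxd2, had -1.61 in MC and -1.31 in FL. Foxh1 had -1.65 in MC and Foxb1 -1.39 in FL. Without E12.5 replicate 1 these 4 values were -1.86, -1.59, -1.26 and -1.80. Cover was low in Foxh1, with 0.0, 0.0 and 1.01 scaled kb in the MC libraries against 2.32 and 1.32 kb at E12.5. It was also low in Foxb1, with 0.573, 0.0 and 0.0 kb in the FL libraries against 0.695 and 1.89 kb at E12.5. Foxe3 had 0.426, 0.0 and 2.247 kb in the MC libraries, 0.340, 1.521 and 0.884 kb in those of FL, and 2.135 and 3.624 kb at E12.5. Its E12.5 libraries overlapped those of MC and not those of FL. For H3K27ac, 21 of the 38 had enough single-library cover and 0 passed in limma. Foxb1 (0.91) and Foxq1 (0.69) had the smallest p with more cover in MC.

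For each member the 2 genes with the most similar profile over the 8 ATAC lists were looked up, by the root mean square difference of centred log2 cover, which has no p here because all genes share the 8 lists and their total cover. The nearest to Foxc1 were Setbp1 (0.15) and Rab22a (0.18), where the median gene was at 0.73. The nearest to Foxc2 were Nprl3 (0.13) and Dhrs4 (0.16), to Foxf1 Grik5 and Prph2 (both 0.27), and to Foxf2 Itga9 (0.06) and Endod1 (0.13). The nearest to Foxd1 were Zfr and Prpf18 (both 0.12), and to Foxd2 Arhgef40 (0.09) and Cdc37 (0.12). Grik5, nearest to Foxf1, had 18.8 and 3.13 scaled kb in E12.5 replicates 1 and 2. This follows from the selection, which used likeness over lists that include replicate 1. No 2 members had the same nearest genes.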

How the data were processed

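The deposited files are peak lists for mouse mm10: 8 single-library and 3 combined ATAC lists, and 6 single-library and 2 combined H3K27ac lists. Per the submitters' processing notes, the tools were Trim Galore, Bowtie2, SAMtools and the peak callers Genrich and SEACR. Versions and settings are not given in the sources used here. Each peak carries a signal deposited by the authors, used here only to rank peaks within a list. Read depth is unknown, so no counting interval is given. Hi-C and 4C samples were not analysed here.

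Peaks were assigned to 21631 RefSeq protein-coding genes by midpoint, else to the nearest within 1 Mb. Cover in kb was scaled so that all lists had an equal sum, and log2(kb + 0.5) was fitted with limma 3.58.1 (R 4.3.3, trend and robust settings, statmod 1.5.0), with all 8 ATAC lists in 1 fit and all 6 single-library H3K27ac lists in another. Genes needed a mean of 0.3 kb (ATAC) or 1 kb (H3K27ac), and fold changes of low genes are understated by the added 0.5 kb. P-values were adjusted by Benjamini-Hochberg over all genes tested, with a threshold of 0.05. The fit was tested on simulated data, with an outcome not reported here. The simulation gave each gene the same spread in all lists, so it holds no list that stands apart as E12.5 replicate 1 did. Windows had flanks of 200 kb and were compared by two-sided exact permutation tests. Tables were handled in pandas 2.3.3 and numpy 2.4.6 (Python 3.11.15). The exact permutation tests enumerated all splits in Python with numpy, and plots were drawn in matplotlib 3.10.9.

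The members and gene lists were chosen with earlier results of these data known. Named by rule were the 6 members, Foxq1 and Foxl1, the 2 other forkhead genes of smallest p per direction, the 2 genes of most similar profile, and for each member the region in most lists with the best median rank and every region in all lists of 1 group and none of another; further regions on the gene spans were named after their values were seen. The single-library H3K27ac genes of smallest p with more cover in FL are not reported here. Alternatives tried were other pseudocounts, filters, distance limits, overlaps and scalings, peak numbers, top peaks only, a replicate block, fits of 2 groups alone, and leaving out each list.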

Additional observations from a re-analysis of the deposited data

How the results depend on the processing

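Peak calling sets these limits: depth is unknown, a peak just under the caller's threshold counts as 0 kb, and combined lists have no error. Only 2 E12.5 lists were used, and without 1 of them the other is assumed to vary like the other groups. Leaving out each list in turn gave 0 limma calls for MC against FL, 0 to 4115 for MC against E12.5, 0 to 6348 for FL against E12.5 (the highest without E12.5 replicate 2) and 0 to 39 for single-library H3K27ac, which had 8 calls with 2 kb added. Deviations of same-numbered MC and FL lists had small correlations (0.044, 0.051 and 0.048 for ATAC, -0.010, -0.019 and 0.036 for H3K27ac). Between MC and FL lists of other numbers they ran from -0.047 to -0.0033 for ATAC and from -0.046 to 0.056 for H3K27ac. Whether same-numbered lists are paired was not tested. With a replicate block limma made 0 ATAC calls in each comparison (702, 681 and 1339 genes at an unadjusted p under 0.05) and 13 H3K27ac calls.

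Window differences in kb reversed for Foxd1, MC minus FL, with flanks of 100 kb (-0.39) and 500 kb (-1.20), for Foxd2 with flanks of 500 kb (MC minus FL -5.75, FL minus E12.5 2.19), and for Foxf2-Foxq1-Foxc1, MC minus E12.5, as listed (-0.65). With 1 list left out they ran from -2.46 to 2.23 (Foxd2, MC minus FL), -1.52 to 8.39 (Foxf2-Foxq1-Foxc1, MC minus E12.5) and -63.8 to 9.69 (Foxf1-Foxc2-Foxl1, MC minus E12.5). With 50% overlap, member regions numbered 0 (MC, not FL), 0 (FL, not MC), 1 (MC, not E12.5), 3 (E12.5, not FL) and 0 (every list). With the same number of top peaks they numbered 0 (MC, not FL), 1 (MC, not E12.5), 5 (FL, not E12.5) and 2 (E12.5, not FL). With 1 list left out the ranges were 1 to 4 (MC, not FL), 1 to 3 (FL, not MC), 3 to 6 (MC, not E12.5), 3 to 53 (E12.5, not MC), 3 to 8 (FL, not E12.5), 5 to 56 (E12.5, not FL) and 11 to 12 (every list).

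These log2 differences changed sign, most of them from values near 0 but 4 of them from 0.58 (Foxc2, MC minus E12.5), 0.56 and 0.69 (Foxc2 and Foxd1, combined H3K27ac) and 0.77 (Foxf2, single-library H3K27ac). With top peaks, Foxf2 was at 0.0095 (MC minus FL), 0.0844 (MC minus E12.5) and 0.0749 (FL minus E12.5), Foxd2 at 0.1689 (MC minus E12.5) and Foxc2 at 0.0163 (FL minus E12.5). By number of peaks Foxc2 was at -0.2038 (MC minus E12.5) and -0.1685 (combined H3K27ac), and within 100 kb Foxd1 was at -0.0260 (combined H3K27ac). For single-library H3K27ac, Foxc1 was at -0.0110 (2 kb added), -0.0041 (100 kb) and -0.0098 (top peaks), and Foxd2 at 0.0152 (2 kb added), 0.2058 (100 kb), 0.0341 (number of peaks), 0.1569 (top peaks) and 0.0281 (unscaled). With 1 list left out, Foxc1 ran from -0.4084 to 0.0077 and Foxf2 from -0.3337 to 0.2662 (MC minus FL), Foxf2 from -0.4468 to 0.153 (MC minus E12.5) and from -0.2811 to 0.0583 (FL minus E12.5), and for H3K27ac Foxc1 from -0.3613 to 0.26, Foxf2 from -0.1043 to 1.2457 and Foxd2 from -0.4196 to 0.5289. The cause of these changes was not tested.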
